A study of Mus musculus with 11 samples.

Results

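The mitochondrial chromosome of the mouse encodes a small set of respiratory chain proteins, and 10 of their genes are described here in sorted blood stem cells. The 10 were taken as the rows of the deposited count table whose Ensembl identifier carries the symbol mt-Nd1, mt-Nd2, mt-Nd4, mt-Nd5, mt-Nd6, mt-Co1, mt-Co2, mt-Co3, mt-Atp6 or mt-Cytb, out of 49585 rows in all and 37 rows on the mitochondrial chromosome. All 10 symbols were found. RNA-seq libraries were made from bone marrow hematopoietic stem cells of C57BL/6 mice, sorted as Lin- c-Kit+ Sca-1+ CD48- CD150+ and divided by CD41, the integrin alpha IIb subunit of megakaryocytes and platelets. There were 3 libraries of CD41+ cells and 3 of CD41- cells from mice 24 h after platelet depletion, and 2 of CD41+ cells and 3 of CD41- cells from control mice given rabbit serum. The sources used here do not give the age of the mice or the depleting agent. Each library pooled cells of 3 mice, and the RNA of 1000 cells was copied from an oligo-dT primer, so only RNA with a run of A was meant to enter.

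Mitochondrial DNA is transcribed from both strands into long RNAs that are cut at the transfer RNAs between the genes, after which most messenger RNAs receive a short poly(A) tail. The proteins are subunits of complex I (the Nd genes), complex III (mt-Cytb), complex IV (the Co genes) and ATP synthase (the Atp genes), and each is assembled with subunits encoded in the nucleus. Blood stem cells are known for a low use of respiration and for a mitochondrial content that differs between quiescent and activated cells.

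The counts of 7 of the 10 genes were high, and those of the other 3 were at or next to 0. mt-Co3 and mt-Atp6 had 0 counts in all 11 libraries, and mt-Co2 had 1 count, in control CD41- replicate 1. By depth alone, the limit that a count of 0 allows, 3 counts per library, lay between 0.301 and 3.08 CPM. CPM are counts relative to the total of the library, after scaling between libraries. For mt-Co1 they were 3043 to 10455 CPM. The depth limit bounds the level of a gene only if its reads could be counted for it. mt-Co2 (chrM:7013-7696), mt-Atp6 (chrM:7927-8607) and mt-Co3 (chrM:8607-9390) lie side by side on the plus strand, with coordinates in GRCm38. mt-Atp8, mt-Nd3 and mt-Nd4l, which lie in the same stretch and are not among the 10, also had 0 counts in every library. The nuclear genome holds a near-identical copy of this stretch on the minus strand of chr1:24611535-24616197, annotated as 7 separate genes that each match a mitochondrial gene at 99% or more over at least 100 bases. One of these, Gm28661, is identical to mt-Co2 over 681 bases. The first 60 bases of both, in the gene's 5′ to 3′ direction and taken from the GENCODE M21 transcripts, are shown because a read of them fits either place; capitals are used for none of them, as no base differs.
mt-Co2: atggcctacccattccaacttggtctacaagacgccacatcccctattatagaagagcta
Gm28661: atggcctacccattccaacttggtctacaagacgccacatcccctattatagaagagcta
Gm10925 is likewise identical to mt-Atp6 over 678 bases, and Gm28437 to mt-Co3 over 783 bases. Gm28438 matches mt-Nd3 over 345 bases with 1 mismatch, and Gm29216 matches bases 1063 to 1545 of mt-Co1 with 1 mismatch. These are shown because a single base, in capitals, tells the mitochondrial gene and its nuclear copy apart.
mt-Nd3: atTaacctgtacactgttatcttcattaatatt
Gm28438: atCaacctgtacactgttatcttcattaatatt
mt-Co1: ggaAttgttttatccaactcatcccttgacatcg
Gm29216: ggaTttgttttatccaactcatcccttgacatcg
Counted from 1 at the 5′ end of each mitochondrial gene, the mismatches are T3C between mt-Nd3 and Gm28438 and A1066T between mt-Co1 and Gm29216.

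The nuclear copies themselves had few counts. All 7 together had 609 counts over the 11 libraries, between 12 and 96 per library, of which 560 belonged to Gm28438. mt-Nd4 shares its first 876 bases with Gm28439 and has 502 bases outside the copy, and mt-Co1 has 1062 bases outside Gm29216. Levels of these 2 genes therefore rest on part of their length if reads that fit 2 places were left out. The sources used here do not say how the submitters' counting treated such reads, and the part of the copies in the zeros was not tested. No level or change of mt-Co2, mt-Co3 or mt-Atp6 can be read from these data.

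**Figure D1:**
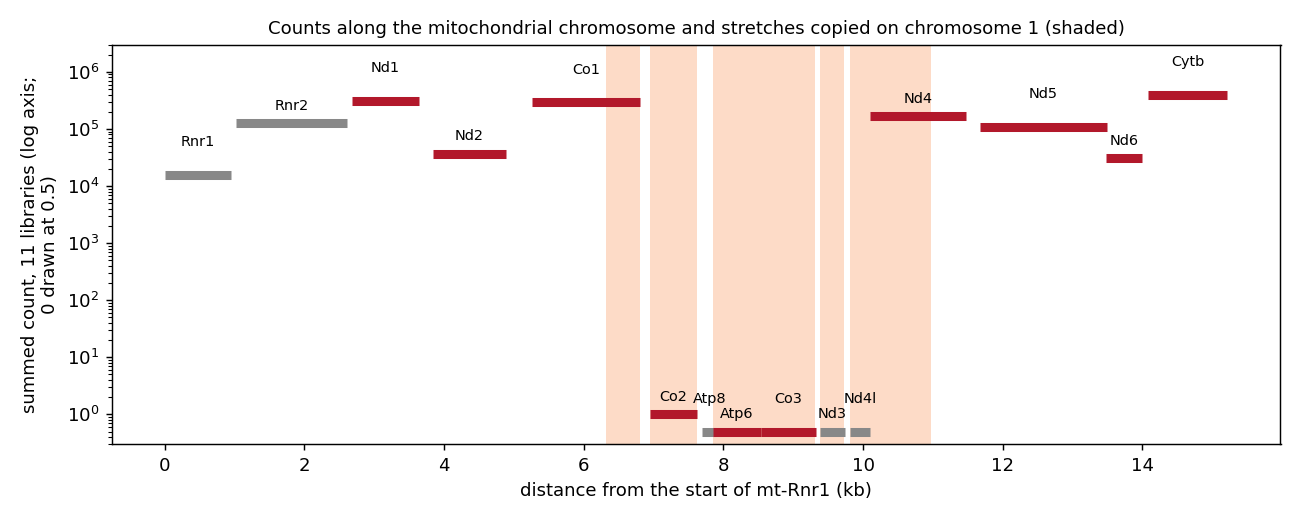
Map of the mitochondrial protein genes (red for the 10 described, grey for the others) and ribosomal RNA genes (grey), with distance in kilobases from the first base of mt-Rnr1 on the horizontal axis and each gene's count summed over 11 libraries on a log vertical axis, 0 being drawn at 0.5. Shading marks the stretches matched by near-identical nuclear copies. The genes with totals of 0 or 1 lie together in the stretch that a nuclear copy covers, except that no copy of mt-Atp8 was annotated; mt-Nd4 and the end of mt-Co1 are covered in part.

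The annotated ends of the mitochondrial genes are also visible in the reference sequence, while the ends of the messages were not measured. Which of the messages carried a poly(A) tail was not measured either. The last 30 bases of the 7 measured genes are shown, in the sense of the message and from the GENCODE M21 transcripts, because the libraries were primed at the poly(A) tail; capitals mark the stop codon, or the part of it that the DNA encodes.
mt-Nd1: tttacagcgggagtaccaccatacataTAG
mt-Nd2: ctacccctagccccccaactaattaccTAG
mt-Nd4: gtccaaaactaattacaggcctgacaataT
mt-Nd5: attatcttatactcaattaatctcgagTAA
mt-Nd6: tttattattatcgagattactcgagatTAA
mt-Co1: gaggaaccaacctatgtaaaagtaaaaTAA
mt-Cytb: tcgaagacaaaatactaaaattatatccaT
In mt-Nd4 and mt-Cytb the gene ends at the T of the stop codon, which the poly(A) tail completes. The annotated ends of mt-Nd1 and mt-Nd2 overlap the transfer RNA genes mt-Ti and mt-Tw, which start at chrM:3706 and chrM:4950. Their messages may therefore end before the full TAG shown. mt-Nd6 is the one protein gene on the minus strand of the mitochondrial chromosome and overlaps the end of mt-Nd5 at chrM:13552-13565. Counts of this pair cannot be told apart over the overlap without strand. Plus-strand RNA that runs on past mt-Nd5 through mt-Nd6 would then also count for mt-Nd6. The sources used here do not state the strand setting of the counting, so counts of mt-Nd6 may hold RNA of either strand.

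The libraries held 974196 to 9950423 counts, with a median of 3878931, and depleted CD41+ replicate 1 was the shallowest. CD41 itself followed the sort: the level of Itga2b was 219, 246 and 170 CPM in the CD41+ libraries of depleted mice, where the CD41- libraries had 44.4, 37.5 and 44.7 CPM. In control mice it was 425 and 354 CPM in CD41+ libraries, where the CD41- libraries had 98.5, 46.1 and 62.5 CPM. Markers of other cells were present and differed between libraries. The 12 neutrophil markers, all detected in every group, summed to 15205 to 52461 CPM in depleted CD41+, 4443 to 36979 in depleted CD41-, 24376 to 84412 in control CD41+ and 8662 to 15098 CPM in control CD41- cells. The 7 stromal markers summed to 206 to 430 CPM in depleted CD41+, 15.2 to 301 in depleted CD41-, 126 to 263 in control CD41+ and 16.5 to 18.3 CPM in control CD41- cells, with Kitl and Ibsp at 0 in the last group. The 10 erythroid markers, all detected in every group, summed to 4058 to 5368 CPM in depleted CD41+, 2937 to 4473 in depleted CD41-, 5146 to 6430 in control CD41+ and 2934 to 4789 CPM in control CD41- cells. Of these 10, Aqp1 and Epor were higher in CD41+ cells averaged over treatments (edgeR adjusted p = 0.00236 and 0.00521), beside 2.73% of all genes called higher. In that comparison 4 of 6 tested stromal markers were also higher, and no neutrophil or macrophage marker passed. The 6 macrophage markers, again all detected, summed to 250 to 503 CPM in depleted CD41+, 74.8 to 303 in depleted CD41-, 299.8 to 305 in control CD41+ and 12.2 to 181 CPM in control CD41- cells. The 8 stem cell markers summed to 568 to 1320 CPM in depleted CD41+, 1354 to 1865 in depleted CD41-, 1314 to 1808 in control CD41+ and 2203 to 2927 CPM in control CD41- cells. By edgeR, averaged over treatments, 4 of these 8 were lower in CD41+ cells and 1 higher, beside 2.65% of all genes called lower. The 10 megakaryocyte and platelet markers summed to 482 to 618 CPM in depleted CD41+ and 144 to 163 CPM in depleted CD41- cells. In control mice they summed to 703 to 1121 CPM in CD41+ and 163 to 268 CPM in CD41- cells. Of the 9 tested, 7 were higher in CD41+ cells averaged over treatments, Itga2b included.

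Mitochondrial messages made up a smaller part of the RNA in CD41+ than in CD41- stem cells. Set against every 1000 counts on nuclear genes, the protein genes had 18.2, 19.8 and 28.2 counts in depleted CD41+ libraries and 34.4, 32.5 and 33.3 in depleted CD41- libraries. In control mice they had 21.5 and 13.9 per 1000 in CD41+ libraries, against 32.4, 39.3 and 37.5 in CD41- libraries. Every CD41+ library lay below every CD41- library of either treatment, and the highest CD41+ value was 28.2 in depleted replicate 3. The means were 22.1 ± 5.39 (SD, n = 3) in depleted CD41+ and 33.4 ± 0.964 (SD, n = 3) in depleted CD41- cells, and 17.7 ± 5.42 (SD, n = 2) in control CD41+ against 36.4 ± 3.60 (SD, n = 3) in control CD41- cells. As log2 differences, CD41+ minus CD41-, these were -0.62 in depleted and -1.07 in control mice and -0.85 on average, beside a pooled SD of 0.26 between libraries of one group. No p-value is given for this sum of genes. In bulk libraries, fewer cells of a type and less RNA per cell cannot be told apart, so a lower share does not say whether the cells held less mitochondrial RNA or more nuclear RNA.

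**Figure D2:**
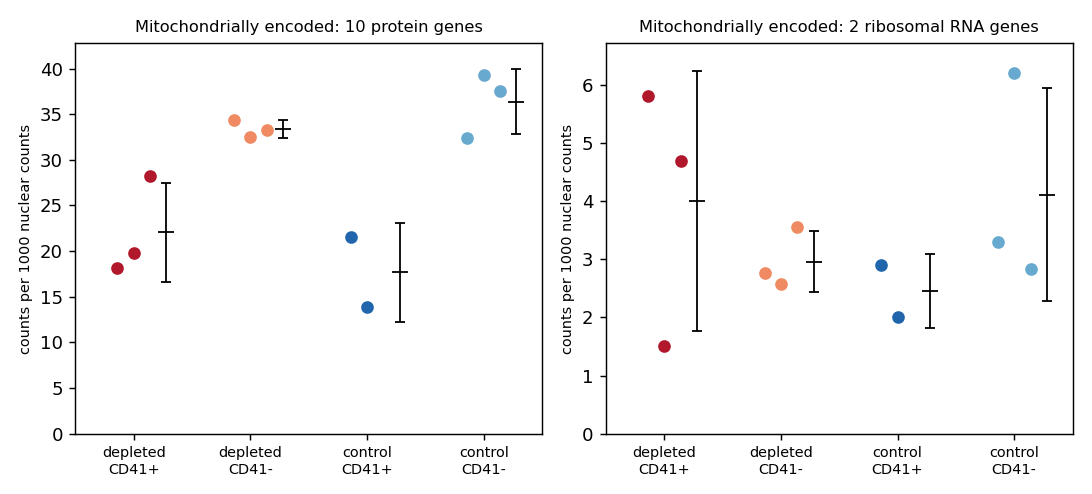
Counts on the mitochondrial protein genes per 1000 counts on nuclear genes (vertical axis), by treatment and CD41 fraction, for the 10 protein genes (left panel) and the 2 ribosomal RNA genes (right panel). Coloured points are libraries and the black mark beside them is their mean ± SD (n = 3, or 2 for control CD41+). In the left panel the 5 CD41+ libraries lie between 13.9 and 28.2 and the 6 CD41- libraries between 32.4 and 39.3.

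RNAs kept in the nucleus, used here as a sign of RNA quality, also differed between libraries. The 5 on the list, of which Meg3 was at 0, summed to 103 to 329 CPM in depleted CD41+, 168 to 546 in depleted CD41-, 204 to 384 in control CD41+ and 1577 to 3109 CPM in control CD41- cells, so that the fractions overlapped in depleted mice and not in controls. Of the 3 tested, Kcnq1ot1 was lower in CD41+ cells averaged over treatments (-2.38 ± 0.38, edgeR adjusted p = 0.00521), beside 2.65% of all genes called lower. Malat1 (-1.84 ± 0.45, adjusted p = 0.0516) and Neat1 (-0.22 ± 0.50, adjusted p = 0.837) did not pass. The part of these RNAs in the lower mitochondrial share was not tested.

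Marker sums and mitochondrial shares of single libraries went together in some cases and not in others. Control CD41+ replicate 2 had the highest sum of neutrophil markers, 84412 CPM, and the lowest mitochondrial value, 13.9 per 1000 nuclear counts. Depleted CD41- replicate 2 had the lowest sum of neutrophil markers, 4443 CPM, and 32.5 per 1000. Depleted CD41+ replicate 2 had 15205 CPM of neutrophil markers and control CD41- replicate 3 had 15098 CPM, with 19.8 and 37.5 mitochondrial counts per 1000 nuclear counts. Depleted CD41- replicate 1 had 36979 CPM of neutrophil markers, above control CD41+ replicate 1 at 24376 CPM, and its mitochondrial value of 34.4 was above the 21.5 of that library. Depleted CD41- replicate 3 carried stromal markers at 301 CPM, against 15.2 to 18.3 CPM in the other 5 CD41- libraries and 126 to 430 CPM in the CD41+ libraries, and had 33.3 mitochondrial counts per 1000. The part of other cells in the result was not tested.

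The ribosomal RNAs of the mitochondrion overlapped between the fractions. mt-Rnr1 and mt-Rnr2, which build the mitochondrial ribosome, together had 5.81, 1.50 and 4.69 counts per 1000 nuclear counts in depleted CD41+, 2.76, 2.58 and 3.55 in depleted CD41-, 2.90 and 2.0 in control CD41+ and 3.30, 6.20 and 2.83 in control CD41- libraries. Their log2 difference, CD41+ minus CD41-, was 0.23 in depleted and -0.68 in control mice. In the fit across all genes, averaged over treatments, mt-Rnr1 differed by 0.15 ± 0.61 (log2 fold change ± SE, edgeR adjusted p = 0.914) and mt-Rnr2 by -0.07 ± 0.34 (adjusted p = 0.922).

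Among the complex IV genes, mt-Co1, which encodes the catalytic subunit, was lower in CD41+ cells in both treatments. It had 3257, 3043 and 3707 CPM in depleted CD41+ libraries against 6804, 6277 and 5764 CPM in depleted CD41- libraries. In control mice it had 5053 and 3643 CPM in CD41+ against 7815, 10455 and 9207 CPM in CD41- libraries. The CD41+ and CD41- libraries did not overlap in either treatment. The log2 fold change was -0.91 ± 0.17 (SE, edgeR quasi-likelihood, Benjamini-Hochberg adjusted p = 0.0407) in depleted mice, -1.07 ± 0.19 (adjusted p = 0.0102) in control mice and -0.99 ± 0.13 (adjusted p = 0.00126) averaged over both. The depleted-mouse call did not hold when any of the 6 depleted libraries or control CD41- replicate 1 or 3 was left out, with adjusted p up to 0.232 without depleted CD41- replicate 1. The averaged call held in all 11 fits that left out 1 library.

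**Figure D3:**
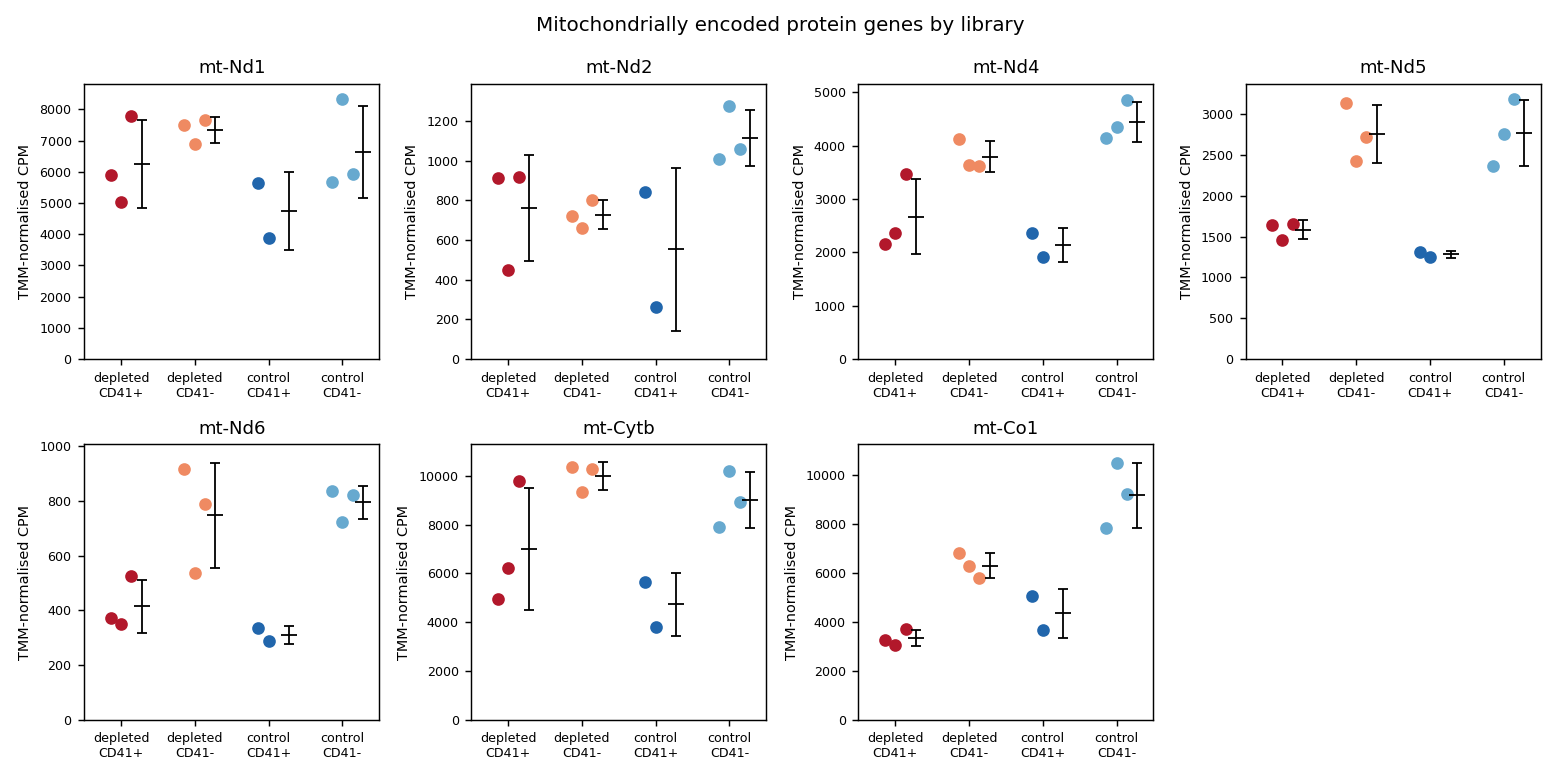
CPM of the 7 measured mitochondrial protein genes (vertical axes, 1 panel per gene), 1 point per library, by treatment and CD41 fraction, with the mean ± SD in black beside the points (n = 3, or 2 for control CD41+). The CD41+ points of mt-Co1, mt-Nd4, mt-Nd5 and mt-Nd6 lie below the CD41- points within each treatment, while those of mt-Nd1, mt-Nd2 and mt-Cytb overlap in depleted mice.

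The complex I genes split into those that were lower and those that did not pass. mt-Nd5, a membrane subunit of the proton-pumping arm, had 1646, 1454 and 1653 CPM in depleted CD41+ against 3131, 2430 and 2714 CPM in depleted CD41- libraries, and 1315 and 1251 CPM in control CD41+ against 2366, 2757 and 3179 CPM in control CD41- libraries. The 5 CD41+ libraries lay within a narrow band, below all 6 CD41- libraries. Its log2 fold change was -0.80 ± 0.15 (edgeR adjusted p = 0.0568) in depleted mice, -1.11 ± 0.18 (adjusted p = 0.00561) in control mice and -0.95 ± 0.12 (adjusted p = 0.000928) on average.

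mt-Nd4, another membrane subunit of that arm, had 2162, 2370 and 3463 CPM in depleted CD41+ against 4128, 3641 and 3614 CPM in depleted CD41- libraries. In control mice it had 2364 and 1904 CPM in CD41+ against 4137, 4343 and 4855 CPM in CD41- libraries. Depleted CD41+ replicate 3 came close to the CD41- libraries without crossing them. The averaged log2 fold change was -0.78 ± 0.14 (edgeR adjusted p = 0.00600).

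mt-Nd6, the light-strand member of complex I, had 370, 348 and 527 CPM in depleted CD41+ against 916, 537 and 790 CPM in depleted CD41- libraries. In control mice it had 335 and 287 CPM in CD41+ against 838, 724 and 822 CPM in CD41- libraries. The fractions did not overlap within either treatment, although depleted CD41+ replicate 3 and depleted CD41- replicate 2 differed by little. Its averaged log2 fold change of -1.10 ± 0.16 (edgeR adjusted p = 0.00227) was the lowest of the 7 genes. With the strand setting unknown, this change may not be that of the minus-strand message alone. How well an oligo-dT primer captures that message was not tested.

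mt-Nd1 and mt-Nd2, 2 further membrane subunits of complex I, did not pass the test. mt-Nd1 had 5895, 5039 and 7798 CPM in depleted CD41+ against 7509, 6882 and 7649 CPM in depleted CD41- libraries, and 5630 and 3872 CPM in control CD41+ against 5662, 8345 and 5944 CPM in control CD41- libraries. mt-Nd2 had 911, 451 and 918 CPM in depleted CD41+ against 723, 659 and 803 CPM in depleted CD41- libraries, and 845 and 263 CPM in control CD41+ against 1009, 1276 and 1059 CPM in control CD41- libraries. Both genes overlapped between the fractions in depleted mice and did not in control mice, where the 2 CD41+ libraries themselves differed widely for mt-Nd2. The averaged log2 fold changes were -0.36 ± 0.15 (edgeR adjusted p = 0.175) for mt-Nd1 and -0.48 ± 0.28 (adjusted p = 0.330) for mt-Nd2.

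mt-Cytb, the only complex III subunit that mitochondrial DNA encodes, had 4963, 6244 and 9811 CPM in depleted CD41+ against 10386, 9339 and 10284 CPM in depleted CD41- libraries. In control mice it had 5651 and 3808 CPM in CD41+ against 7898, 10193 and 8934 CPM in CD41- libraries. Depleted CD41+ replicate 3 lay among the CD41- libraries and the other CD41+ libraries lay below them. The averaged log2 fold change was -0.72 ± 0.17 (edgeR adjusted p = 0.0254), and the call was lost in 5 of the 11 fits that left out 1 library, with adjusted p up to 0.117 without control CD41+ replicate 2.

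Counted together, averaged over both treatments 5 of the 7 tested genes were lower in CD41+ cells and 0 were higher, where 2.65% of all 13448 tested genes were called lower. The libraries of 4 of the 7 did not overlap, lower in CD41+ cells, in either treatment, as for 3.77% of all tested genes. The median log2 fold change was -0.78 for the 7 genes and -0.03 for all tested genes. In control mice 4 of 7 were called lower, mt-Co1, mt-Nd4, mt-Nd5 and mt-Nd6, against 1.04% of all genes, and all 7 had no overlap of libraries, against 17.5%. Over the 11 fits without 1 library, the control-mouse log2 fold change ranged over -1.30 to -0.86 for mt-Co1 and -1.20 to -0.91 for mt-Nd4. It ranged over -1.21 to -0.999 for mt-Nd5 and -1.44 to -1.25 for mt-Nd6. Leaving out control CD41+ replicate 2, the library with the highest neutrophil markers and the lowest mitochondrial share, leaves 1 library in that group. Calls are therefore not given for that fit. In depleted mice 1 of 7, mt-Co1, was called lower against 0.126% of all genes, and 4 of 7 had no overlap against 9.32%. The 3 genes at or near 0 could not be tested and enter none of these counts. The difference between the control and depleted contrasts is the interaction given further on.

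**Figure D4:**
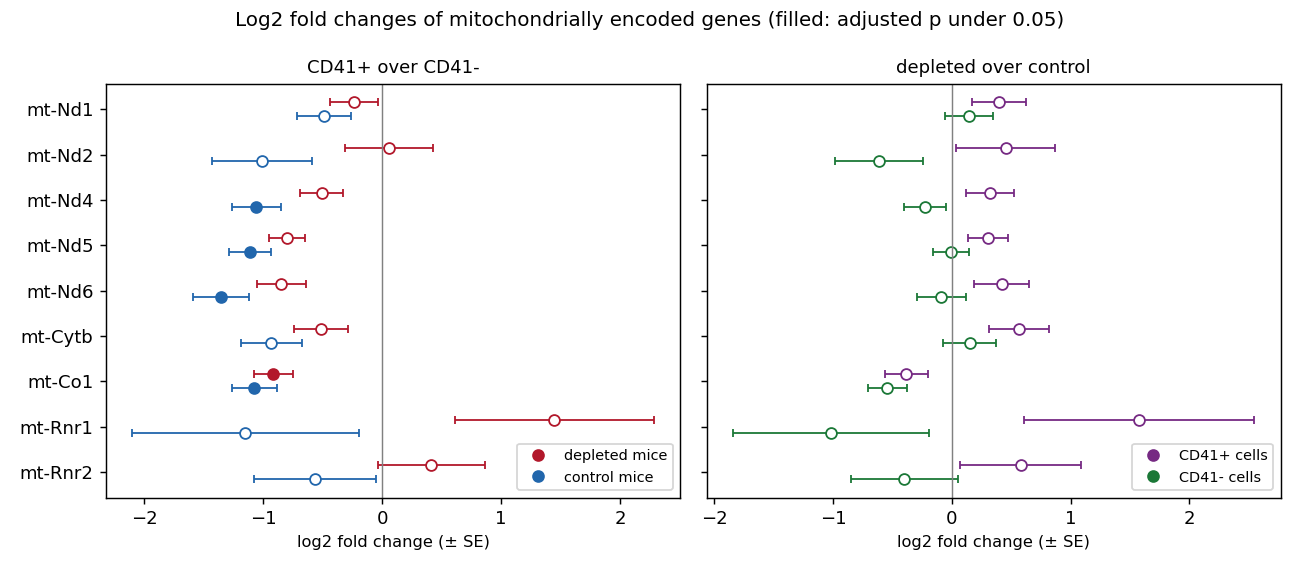
Log2 fold changes with their SE (horizontal axes) of the 7 measured protein genes and the 2 ribosomal RNAs, for CD41+ over CD41- cells in depleted and in control mice (left panel) and for depleted over control mice in CD41+ and in CD41- cells (right panel), filled where the edgeR adjusted p was under 0.05. The CD41 changes of the protein genes lie between -0.91 and 0.06 in depleted and between -1.35 and -0.49 in control mice, and the depletion changes between -0.38 and 0.57 in CD41+ and between -0.61 and 0.15 in CD41- cells.

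Of the rows for mitochondrial transfer RNAs, 9 passed the filter, and 2 of these, mt-Ty and mt-Te, were lower in CD41+ cells and 0 higher, beside the 2.65% of all genes called lower. They differed by -0.92 ± 0.19 (log2 fold change ± SE, edgeR adjusted p = 0.0151) and -1.31 ± 0.36 (adjusted p = 0.0471), averaged over treatments. They carry tyrosine and glutamate. Both genes lie on the minus strand, mt-Ty next to mt-Co1 and mt-Te next to mt-Nd6. With the strand setting unknown, their counts may hold RNA of either strand. Transfer RNAs have no poly(A) tail, so their counts come from longer RNAs that span them or from internal priming, which these data do not tell apart.

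The summed mitochondrial share of depleted libraries overlapped that of control libraries in both fractions. Its log2 difference, depleted minus control, was 0.33 for CD41+, -0.12 for CD41- and 0.10 for the mean of both, beside the pooled SD of 0.26. In CD41+ cells 0 of the 7 genes passed by edgeR and 0 by DESeq2, against 0.104% of all genes called in either direction, and 1 had an unadjusted p under 0.05 (mt-Cytb, log2 fold change 0.57 ± 0.25, adjusted p = 0.384). The libraries of 2 of the 7, mt-Nd5 and mt-Nd6, did not overlap there, higher after depletion, as for 13.2% of all tested genes. In CD41- cells 0 of 7 passed by edgeR, against 3.19% of all genes, and 1 by DESeq2; mt-Co1 was the 1 gene with an unadjusted p under 0.05, at -0.54 ± 0.16 (adjusted p = 0.0972). The libraries of 3 of the 7, mt-Nd2, mt-Co1 and mt-Nd4, did not overlap there, lower after depletion, as for 12.1% of all tested genes. Both contrasts use libraries that also enter the CD41 comparisons, so they are not independent of them. Of the nuclear-retained RNAs, Malat1 was lower after depletion in CD41- cells (-2.90 ± 0.60, edgeR adjusted p = 0.0385), and its part in these comparisons was not tested.

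Averaged over the fractions, mt-Co1 alone passed, lower after depletion by -0.46 ± 0.12 on the log2 scale (edgeR adjusted p = 0.0385), 1 of 7 genes where 2.73% of all genes were called lower. The CPM values behind it, given above, did not overlap between depleted and control CD41- libraries, and in CD41+ cells depleted replicate 3 at 3707 lay above control replicate 2 at 3643. The call held without control CD41+ replicate 2 or control CD41- replicate 1 and was lost in the other 9 fits that left out 1 library, with adjusted p between 0.0261 and 0.221, the highest without control CD41+ replicate 1. The other 6 genes changed by between -0.08 and 0.36 and did not pass.

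The share of mt-Co1 among the mitochondrial messages separated depleted from control libraries, whereas the summed mitochondrial share overlapped. mt-Co1 made up 13.3% to 17.0% of the counts of the 7 genes in depleted CD41+ libraries and 23.8% to 24.2% in control CD41+ libraries. In CD41- libraries it made up 18.2% to 21.1% after depletion and 26.3% to 27.5% in controls. No depleted library reached any control library, and within each treatment the CD41+ libraries lay below the CD41- libraries. The averaged difference was -7.84 percentage points for depleted minus control and -3.66 points for CD41+ minus CD41-. mt-Nd1 had higher mean shares after depletion, with 28.4% ± 2.09 in depleted CD41+ (SD, n = 3), 23.2% ± 0.925 in depleted CD41- (n = 3), 26.2% ± 0.569 in control CD41+ (n = 2) and 19.5% ± 2.24 in control CD41- libraries (n = 3). mt-Cytb made up 31.3% ± 4.88 and 31.6% ± 0.831 in depleted CD41+ and CD41- libraries, against 26.0% ± 0.939 and 26.5% ± 0.244 in control CD41+ and CD41- libraries. In CD41+ cells the mt-Cytb share of depleted replicate 1, 25.8%, lay between the 26.7% and 25.3% of the control libraries. The mt-Nd1 share did not overlap between treatments within either fraction. Shares of mt-Nd4, mt-Nd5 and mt-Nd6 overlapped between treatments in both fractions, and that of mt-Nd2 in CD41+ cells. Shares of one sum depend on each other, and they were not tested.

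The ratio of 2 genes avoids the scaling between libraries. mt-Cytb had 1.52, 2.05 and 2.65 counts for each count of mt-Co1 in depleted CD41+ libraries and 1.53, 1.49 and 1.78 in depleted CD41- libraries. In control libraries the ratio was 1.12 and 1.05 in CD41+ and 1.01, 0.975 and 0.970 in CD41- cells. Each of the 6 depleted libraries lay above each of the 5 control libraries. A ratio of this kind shows that the 2 genes changed unequally and does not say which of them moved. The sources used here do not say whether depleted and control libraries were prepared together, so treatment and preparation cannot be told apart for this difference.

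**Figure D5:**
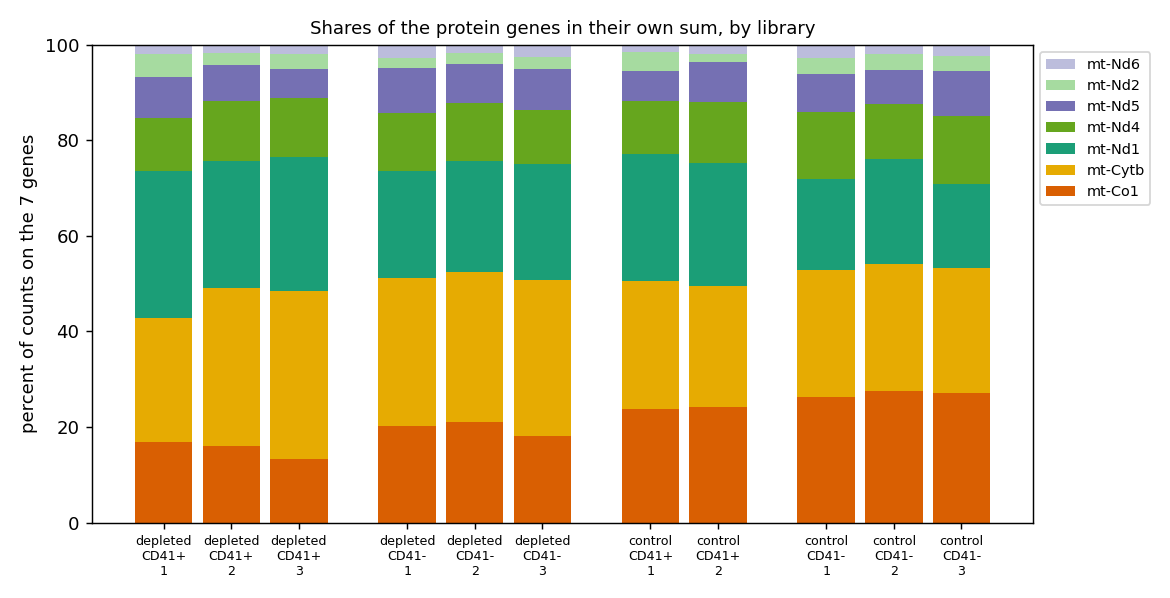
Share of each of the 7 genes in their summed counts, in percent (vertical axis), as stacked bars, 1 bar per library, by treatment and CD41 fraction. The mt-Co1 share, at the foot of each bar, is 13.3% to 21.1% in the 6 depleted libraries and 23.8% to 27.5% in the 5 control libraries.

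The response to depletion was not found to differ between the fractions for any of the 7 genes. The difference of responses, CD41+ minus CD41-, was called for 0 of 7 genes and for 0.0% of all genes by edgeR; at an unadjusted p under 0.05 there were 0 of the 7 and 825 of all genes, and DESeq2 called 30 genes. All 7 estimates were above 0 on the log2 scale, from 0.16 for mt-Co1 (SE 0.25) to 1.07 for mt-Nd2 (SE 0.56), and none passed, which does not show that the fractions responded alike. The same interaction is the difference between the CD41 contrasts of depleted and control mice, which was therefore not shown to differ either.

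Per length outside the near-identical copies, the messages formed 2 tiers. This scale holds only if reads that fit 2 places were left out, which the sources used here do not say. CPM per kilobase outside the near-identical copies averaged 6954 ± 2088 for mt-Cytb, 6697 ± 1999 for mt-Nd4, 6671 ± 1425 for mt-Nd1 and 5566 ± 2346 for mt-Co1 (SD over all 11 libraries of 4 groups). mt-Nd5 averaged 1191 ± 400, mt-Nd6 1138 ± 452 and mt-Nd2 781 ± 272. The first 4 genes held ranks 1 to 4 and the last 3 held ranks 5 to 7 in each of the 11 libraries. The order within a tier was not tested, and mt-Nd2 held rank 7 in 9 of the 11 libraries. Taken over the full length instead, mt-Nd4 averaged 2440 ± 728 and mt-Co1 3826 ± 1613, both above the 1191 of mt-Nd5, which has no near-identical copy. mt-Rnr2 stood at 1888 ± 791 and mt-Rnr1 at 422 ± 332 on the same scale. How well an oligo-dT primer captures these 2 RNAs was not tested.

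The genes did not vary as 1 block over the libraries. Over the 11 libraries Pearson's r of log2 CPM was 0.94 between mt-Nd4 and mt-Nd6 and 0.94 between mt-Nd5 and mt-Nd6. It was 0.88 between mt-Nd1 and mt-Cytb, 0.64 between mt-Co1 and mt-Cytb and 0.48 between mt-Nd1 and mt-Co1. With the ribosomal RNAs, r was between 0.07 and 0.71, highest for mt-Nd2. These are descriptions over libraries that share groups and scaling, and counts of mt-Nd5 and mt-Nd6 may share RNA if strand was not kept. Among 7410 nuclear genes of at least 20 CPM on average, those that followed the mean log2 CPM (pseudocount 0.5) of the 7 genes most closely over the 11 libraries were Sox4 (r = 0.93), Gm26735 (0.92), Ppp3ca (0.92), Atrx (0.91) and Bcl11a (0.90). Those that ran most against it were Slc25a20 (-0.95), Ccnd3 (-0.95), G6pc3 (-0.92), Ptgs1 (-0.91) and Sec61a1 (-0.91), so that they were high where the mitochondrial messages were low.

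Nuclear genes of the same pathways were also read in the CD41 comparison. Of 26 nuclear subunits of complexes I, III and IV and of ATP synthase, which the mitochondrial proteins join, 1 was higher and 0 lower in CD41+ cells averaged over treatments, beside 2.73% of all genes called higher, with a median log2 fold change of 0.25 against -0.03 for all genes. It was Cyc1, the cytochrome c1 subunit of complex III (0.62 ± 0.13, edgeR adjusted p = 0.0168). Of the 4 subunits of complex II, which has no mitochondrially encoded part, 1 was higher, the membrane anchor Sdhd (0.47 ± 0.13, adjusted p = 0.0445). Cyc1 had 331, 312 and 295 CPM in depleted CD41+ against 219, 236 and 263 CPM in depleted CD41- libraries, and 220 and 293 CPM in control CD41+ against 153, 165 and 109 CPM in control CD41- libraries. The fractions of Cyc1 did not overlap in either treatment. Over these 30 genes together, the count of 2 held without depleted CD41+ replicate 1 or 2 or control CD41- replicate 2; it was 0 without control CD41+ replicate 2 and 1 without any other library.

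Of 23 tested genes of mitochondrial RNA processing and decay, 2 were higher and 0 lower in CD41+ cells, beside the 2.73% of all genes called higher. They were Rexo2, an exonuclease that degrades short RNAs in mitochondria (0.54 ± 0.12, edgeR adjusted p = 0.0217), and Trmt10c, a subunit of the mitochondrial RNase P that cuts the transfer RNAs out of the precursor (0.49 ± 0.13, adjusted p = 0.0462). This count was 0 without depleted CD41- replicate 1 or 2 or without either control CD41+ replicate, 1 without depleted CD41+ replicate 1 or 3, depleted CD41- replicate 3 or control CD41- replicate 1 or 3, and 0 with library size as the only scaling. Rexo2 had 181, 193 and 231 CPM in depleted CD41+ against 136, 139 and 165 CPM in depleted CD41- libraries, and 143 and 152 CPM in control CD41+ against 105, 103 and 80.7 CPM in control CD41- libraries. Averaged over treatments, 2.65% of all genes were called lower and 2.73% higher. By edgeR 0 of 18 genes of mitochondrial DNA upkeep and transcription, 0 of 8 regulators of biogenesis, 0 of 16 mitophagy genes, 0 of 28 assembly factors and 0 of 15 mitochondrial chaperone and stress genes passed in this comparison. The genes of smallest p in these lists included Ppargc1a, a coactivator of biogenesis (-2.63 ± 0.74, adjusted p = 0.0537), and Pink1, the kinase that starts mitophagy (-0.67 ± 0.19, adjusted p = 0.0550). Among assembly factors they were Timmdc1 of complex I (1.09 ± 0.33, adjusted p = 0.0711) and Lyrm7 of complex III (1.04 ± 0.32, adjusted p = 0.0726), and among upkeep and transcription genes Mterf1a (0.97 ± 0.46, adjusted p = 0.226). Ppargc1a lay near the limit of counting, so the size of its change is uncertain. It had 0.802 and 0.258 CPM in control CD41+ against 0.550, 8.11 and 10.2 CPM in control CD41- libraries. In depleted mice it had 3.34, 1.18 and 0.583 CPM in CD41+ against 4.48, 4.61 and 4.73 CPM in CD41- libraries.

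After depletion, averaged over the fractions, 4 of the 26 subunits of the shared complexes were higher and 0 lower, beside 3.6% of all genes called higher. They were Cyc1 and Uqcrq of complex III (Uqcrq 0.66 ± 0.15, edgeR adjusted p = 0.0192) and Cox6a1 and Cox5a of complex IV (0.52 ± 0.12, adjusted p = 0.0204, and 0.65 ± 0.17, adjusted p = 0.0343). Of the 4 complex II subunits 1 was higher, the iron-sulfur subunit Sdhb (0.56 ± 0.11, adjusted p = 0.0108). Sdhb had 323, 352 and 391 CPM in depleted CD41+ against 252 and 233 CPM in control CD41+ libraries, and 311, 299.9 and 327 CPM in depleted CD41- against 215, 239 and 178 CPM in control CD41- libraries. Depleted libraries of Sdhb lay above control libraries in both fractions. Over the 30 genes together, the count of 5 was 10 by DESeq2 or with no filter. It was 1 without depleted CD41+ replicate 3 or depleted CD41- replicate 3, 2 without either control CD41+ replicate, and 3 without depleted CD41- replicate 1 or control CD41- replicate 1 or 3. Rexo2 was the 1 of 23 tested processing genes that passed after depletion (0.53 ± 0.12, edgeR adjusted p = 0.0228), beside the 3.6% of all genes called higher. It did not pass without depleted CD41+ replicate 3, depleted CD41- replicate 3 or either control CD41+ replicate.

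Among 15 mitochondrial chaperone and stress genes, 4 were higher and 0 lower after depletion, beside the 3.6% of all genes called higher. They were the chaperonin pair Hspd1 (0.78 ± 0.13, edgeR adjusted p = 0.00335) and Hspe1 (0.72 ± 0.18, adjusted p = 0.0304), and the chaperones Trap1 (0.58 ± 0.14, adjusted p = 0.0250) and Hspa9 (0.43 ± 0.11, adjusted p = 0.0285). Hspd1 had 836, 687 and 692 CPM in depleted CD41+ against 370 and 425 CPM in control CD41+ libraries, and 571, 429 and 544 CPM in depleted CD41- against 371, 327 and 277 CPM in control CD41- libraries. Depleted libraries lay above control libraries in both fractions. The count of 4 was 1 without depleted CD41- replicate 1, control CD41+ replicate 1 or control CD41- replicate 1, and 2 without depleted CD41+ replicate 2, depleted CD41- replicate 2 or 3, control CD41+ replicate 2 or control CD41- replicate 3. Of 16 mitophagy genes, 3 were lower and 0 higher, beside 2.73% of all genes called lower. These were the autophagosome proteins Map1lc3b (-0.56 ± 0.11, edgeR adjusted p = 0.0108) and Gabarapl1 (-0.52 ± 0.12, adjusted p = 0.0195) and the cargo receptor Sqstm1 (-0.51 ± 0.12, adjusted p = 0.0218), all of which also serve general autophagy. Only 1 passed without depleted CD41+ replicate 3 or depleted CD41- replicate 1 or 3.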

How the data were processed

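Raw read counts per Ensembl gene were deposited by the authors as 1 table of 49585 rows for the 11 libraries. Per the submitters' processing notes, cutadapt, STAR and HTSeq 0.6.1p1 were used with GRCm38; the sources used here do not state the handling of reads that fit several places. Per the labels' protocols, cDNA was amplified for 17 cycles and libraries for 12, without molecular identifiers, so intervals and limits cover counting error only; the 95% Wilson interval of the share of counts on the protein genes spanned 0.0220 to 0.0524 percentage points.

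Symbols came from GENCODE M21, in which 49326 rows matched. Genes were kept by filterByExpr (minimum count 10, minimum total 15), leaving 13448. They were scaled by TMM and tested with edgeR 4.0.16 (R 4.3.3), robust quasi-likelihood fit on all 4 groups, Benjamini-Hochberg adjustment over all genes, threshold 0.05. The fit was tested on simulated data with 200 changed genes. CPM values are TMM-scaled. Nuclear copies were sought with BLAST 2.17.0 among annotated transcripts; no genome sequence was searched. Counts per 1000 nuclear counts have no p-value: a permutation test planned for that sum is not reported, since the genes were chosen together. DESeq2 1.42.0, other scalings, no filter, a replicate block and leaving out each library were tried. The described genes and the 14 other lists were chosen with earlier results of these data known. Every one of the described genes is named; genes named from the other lists were taken from the up to 4 of smallest p in a comparison, of which not all are printed. Consecutive title numbers did not pair the libraries by the labels. p-values measure the spread between these pools.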

Additional observations from a re-analysis of the deposited data

How the results depend on the processing

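No result past the threshold changed direction under the alternatives run. Averaged over treatments, the CD41 count of 5 protein genes was 5 under every other scaling, DESeq2, a non-robust fit and the replicate block, and 7 with no filter; mt-Nd4, mt-Nd5, mt-Nd6 and mt-Co1 passed in all 11 fits without 1 library, where the count was 4 to 6. The number of genes called was 1674 with no filter and 1357 by DESeq2, against 724, and 300.0 to 788 without 1 library. With library size alone, 249 genes were higher and 443 lower in CD41+ cells, against 367 and 357 with TMM, and in control mice 124 and 155, against 212 and 140. DESeq2 moved the median log2 fold change of all genes in this average to 0.09, against -0.03.

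In control mice (352 genes, 4 protein genes), 1142 genes were called with no filter, 945 by DESeq2 and 143 with the compared groups alone, where 2 protein genes passed; without 1 library the counts were 48 to 545 and 0 to 5. In depleted mice (26 genes, 1 protein gene), 387 genes and 3 protein genes were called with no filter, 191 and 3 by DESeq2, 0 protein genes with RLE size factors or with the mitochondrial chromosome left out of the scaling, and 2 with library size alone; without 1 library they were 5 to 32 and 0 to 1. The replicate block by consecutive title numbers called 158 genes and 3 protein genes there. Deviations correlated at 0.228, 0.343 and 0.207 in depleted pairs and 0.0801 and 0.0977 in control pairs, and the labels do not tie these numbers to shared mice or days, so the numbers were not taken as pairs.

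For depletion, CD41- cells (429 genes, 0 protein genes) gave 862 with no filter and 818 by DESeq2, with 1 protein gene by DESeq2 and 1 with the compared groups alone, and 169 to 560 without 1 library. CD41+ cells (14 genes) gave 317, 248, 7 with a non-robust fit and 0 with the compared groups alone, and 0 to 57 without 1 library. The average (851 genes, 1 protein gene) gave 1336 and 1354, with 2 protein genes under no filter, and 291 to 1060 and 0 to 1 without 1 library. The interaction (0 genes) gave 178 genes and 1 protein gene with no filter and 30 genes by DESeq2. The causes were not tested.

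Without 1 library, the log2 difference in the summed share ranged for CD41 over -1.39 to -0.75 in control mice, -0.81 to -0.50 in depleted mice and -1.01 to -0.69 on average. For depletion it ranged over -0.20 to -0.06 in CD41- cells, 0.00787 to 0.64 in CD41+ cells and -0.06 to 0.26 on average, and for the interaction over 0.13 to 0.76. The depletion difference in the share of mt-Co1 ranged over -8.22 to -7.31 percentage points. By depth alone, a count of 0 would allow 0.301 to 3.08 CPM. That is no upper limit for mt-Co2, mt-Co3 and mt-Atp6 if reads that fit 2 places were left out. These genes have 3, 1 and 3 bases outside the near-identical copies. The 2 libraries of control CD41+ cells limit every contrast that uses them.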
